A study of Mus musculus with 130 samples.

Results

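Ferritin stores iron inside cells, and its subunits come from 2 gene groups that were followed here across mouse liver: the heavy chain gene Fth1 and the light chain gene Ftl1 with its copies Ftl1-ps1, Ftl2-ps and Ftl1-ps2. The 5 genes were chosen by symbol, and each symbol was matched to 1 Ensembl identifier among the 35274 genes of the diet table and the 35711 genes of the strain table. Fth1, Ftl1 and Ftl1-ps1 passed the filter on low counts, whereas Ftl2-ps and Ftl1-ps2 passed it in no comparison and entered the tests only through the summed counts of the 4 light chain genes, called the light chain sum below.

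All 130 libraries were stranded messenger RNA libraries from the large liver lobe of male mice. The diet comparison used only C57BL/6J males, 3 to a diet, fed either chow, sufficient iron at 50 ppm, elevated iron at 500 ppm, carbonyl iron at 2% (that is, 20000 ppm), or that last diet with fibre from cellulose. In the strain panel, 114 inbred strains received chow for 4 weeks and then 2% iron for 6 weeks, with 1 mouse per strain apart from 129X1/SvJ with 2 mice. The panel held 56 BXD strains, 20 AXB/BXA strains, 4 BXH strains, 3 CXB strains and 31 other inbred strains, and it had no mice on a lower iron diet. The 3 mice of a diet are separate animals, and the 1 mouse of a strain gives no error for that strain.

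Ferritin is a hollow shell of heavy and light subunits. The heavy subunit carries the site that oxidises iron on entry, and the light subunit favours the formation of the mineral core. Both messenger RNAs carry an iron-responsive element, a hairpin in the 5′ untranslated region, where iron regulatory proteins bind and block translation when iron is scarce, so transcript levels are only 1 layer of ferritin control.

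The iron-responsive elements are shown because they are the known shared regulatory feature of both chains. Each run is 30 bases of the GENCODE M21 transcript (GRCm38), 5′ to 3′ on the strand of the gene, and the capitals mark the 6-base hairpin loop.

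Fth1: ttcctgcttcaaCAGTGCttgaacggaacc
Ftl1: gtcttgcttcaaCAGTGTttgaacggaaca
Ftl1-ps1: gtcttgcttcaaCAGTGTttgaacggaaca

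The Fth1 element lies at chr19:9982732-9982761 on the plus strand inside 1 exon and upstream of the coding start. The Ftl1 element lies at chr7:45459778-45459807 on the minus strand, also upstream of the coding start. The Ftl1-ps1 element lies at chr13:74406428-74406457 on the plus strand and is identical to that of Ftl1. A loop of this form inside a paired stem was found within the first 200 bases of annotated transcripts of 10 of 21901 protein-coding genes (0.0457%). The annotated transcripts of Ftl2-ps (chromosome 4, 125504288 to 125504839, plus strand) and Ftl1-ps2 (chromosome 10, 130592157 to 130592705, minus strand) span only the coding region, so the element was not found in them.

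A second stretch shows how alike the light chain copies are. It covers coding bases 430 to 504 of Ftl1 (chr7:45458155-45458229, minus strand, in an exon), and the capitals mark bases that differ from Ftl1.

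Ftl1: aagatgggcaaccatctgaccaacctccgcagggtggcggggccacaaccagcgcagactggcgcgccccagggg
Ftl1-ps1: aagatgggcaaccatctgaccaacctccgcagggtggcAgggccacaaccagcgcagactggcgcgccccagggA
Ftl2-ps: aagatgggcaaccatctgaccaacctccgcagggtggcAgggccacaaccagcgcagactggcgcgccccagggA
Ftl1-ps2: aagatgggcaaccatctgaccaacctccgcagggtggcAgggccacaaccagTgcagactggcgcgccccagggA

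Ftl1-ps1 and Ftl2-ps share the same 2 differing bases in this stretch, and Ftl1-ps2 has 3. Over the 552 coding bases of Ftl1, Ftl1-ps1 differed at 2 (99.6% identity) and Ftl2-ps at 7 (98.7%), and Ftl1-ps2 differed at 12 of its aligned bases (97.8%). Ftl1-ps1 is a copy with a single-exon ferritin transcript that GENCODE lists as protein coding and RefSeq lists as a pseudogene, and both annotations list Ftl2-ps and Ftl1-ps2 as pseudogenes.

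The likeness bears on every light chain value. Of the 938 overlapping 31-base words in the Ftl1 transcript, 890 (94.9%) also occur in a transcript of another gene, most of them in Ftl1-ps1. Of the 899 such words of Fth1, 116 (12.9%) are shared. Assignment of reads between the light chain copies is therefore uncertain, and the light chain sum was the measure for comparisons. Among other annotated genes that share words with the light chain, the copy Gm12164 (295 words) took at most 129 counts in a panel library. Cars, a gene sharing 19 words, took at most 644 counts there. Neither is in the light chain sum.

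In C57BL/6J mice the light chain rose with 2% iron, and by edgeR the heavy chain was not called in any contrast. The light chain sum in TPM (transcripts per 1000000, scaled for transcript length and library) was 2711, 2900 and 2958 in the mice on chow. It was 2178, 2602 and 2659 on 50 ppm iron, and 2748, 3273 and 2578 on 500 ppm iron. Levels were 6287, 6903 and 6203 on 2% iron, and 7633, 7328 and 6488 on 2% iron with cellulose. All 6 mice on the 2% diets lay above all 9 mice on the other diets. How large a share of all genes parted these mice is not given here. In whole liver, a change in the number of cells of a type and a change in RNA per cell cannot be told apart.

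Fth1 in the same mice was 1455, 1482 and 1413 TPM on chow, and 1171, 1423 and 1514 TPM on 50 ppm iron. It was 1355, 1244 and 1294 TPM on 500 ppm iron, and 1435, 1306 and 1232 TPM on 2% iron. It was 1893, 1734 and 1450 TPM on 2% iron with cellulose. In TPM the Fth1 values of the 2% group fell within those of the 50 ppm group, and the 2 highest TPM values of the study were both from mice on the cellulose diet.

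**Figure D1:**
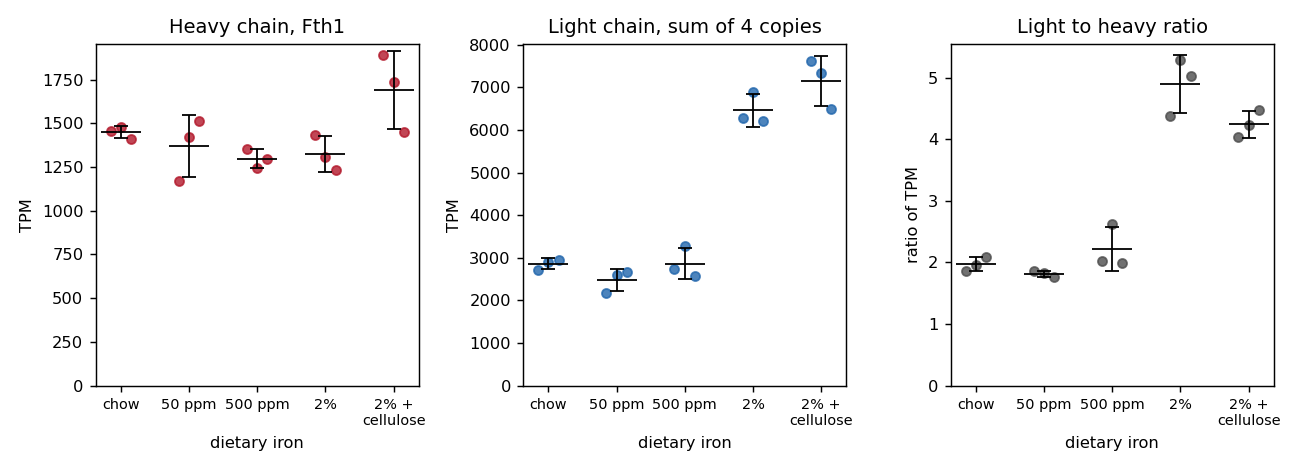
Fth1, the light chain sum (both in TPM) and the ratio of light chain sum to Fth1 by diet in C57BL/6J liver; points are single mice, long bars the mean and whiskers the SD of 3 mice. The light chain sum of the 2% groups starts at 6203 TPM, above the highest value on the other diets, 3273 TPM. In TPM, Fth1 of the mice on 2% iron lies within the range of those on 50 ppm iron.

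Contrasts were tested on counts with edgeR, and levels on that scale are CPM (counts per 1000000) with TMM factors. Summed light chain counts were 1947 ± 61.9 CPM (SD, n = 3) on 50 ppm iron and 4866 ± 151 CPM (SD, n = 3) on 2% iron, a rise of 1.32 on the log2 scale (SE 0.12, adjusted p = 8.35e-05, 2.50-fold). Fth1 was 939 ± 47.2 CPM on 50 ppm iron and 873 ± 58.7 CPM on 2% iron, with a log2 fold change of -0.11 (95% interval -0.35 to 0.14, adjusted p = 0.573). Single mice ran from 885 to 973 CPM of Fth1 on 50 ppm iron and from 828 to 940 CPM on 2% iron. In CPM the 2% group therefore overlapped the 50 ppm group without lying inside its range. In that contrast 15.7% of the 13560 genes tested were called at an adjusted p under 0.05. By p-value, Ftl1 ranked 8 and Ftl1-ps1 ranked 9 among those genes, while Fth1 ranked 8627.

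Ftl1-ps1, at 13.8 ± 1.89 CPM on 50 ppm iron and 38.6 ± 3.10 CPM on 2% iron, followed Ftl1 with a log2 fold change of 1.48 (SE 0.14, adjusted p = 9.59e-05) beside 1.32 (SE 0.12, adjusted p = 8.49e-05) for Ftl1. In all 15 mice of the diet study Ftl1 took between 99.1% and 99.4% of the light chain counts and Ftl1-ps1 between 0.610% and 0.884%. Ftl2-ps had at most 6.57 counts and Ftl1-ps2 at most 13.02 counts in a mouse, and they were at 0 counts in 3 and 4 of the 15 mice. Since the Ftl1 and Ftl1-ps1 coding sequences differ at so few bases, a separate response of Ftl1-ps1 was not resolved by these tables.

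Between 500 and 50 ppm iron no ferritin gene passed the test. The light chain sums did not overlap in CPM, at 2078 to 2637 CPM against 1883 to 2007 CPM. They did overlap in TPM, at 2578 to 3273 TPM against 2178 to 2659 TPM. The share of all genes without overlap between these groups is not given here. On 500 ppm iron the light chain stood at 2271 ± 316.9 CPM, with a log2 fold change against 50 ppm of 0.22 (95% interval -0.04 to 0.49, adjusted p = 0.9998). Fth1 was 899 ± 22.3 CPM there, with a log2 fold change of -0.06 (95% interval -0.31 to 0.18). No gene was called between 500 and 50 ppm (0% of 13560 by edgeR, 428 genes at an unadjusted p under 0.05; 2 genes by DESeq2, 0 by limma on log2(TPM + 1) and 1 on log2(TPM + 0.1)). The second mouse on 500 ppm iron had 20.36 M counts (M, 1000000) against 10.42 to 14.18 M in the other 14 mice, and it also had the highest light chain level of its group, 2637 CPM against 2078 and 2098 CPM. Without it the light chain log2 fold change was 0.10.

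Against 500 ppm iron, the 2% diet raised the light chain sum by 1.10 on the log2 scale (SE 0.12, adjusted p = 0.000227), where 11.3% of genes were called. Against chow the rise was 1.04 (SE 0.12, adjusted p = 0.000144), where 22.8% of genes were called. Fth1 had log2 fold changes of -0.04 (adjusted p = 0.865) and -0.27 (95% interval -0.51 to -0.03, adjusted p = 0.104) in the same contrasts. The first of these turned to 0.03 with limma on log2(TPM + 1). The Fth1 difference from chow missed the threshold with edgeR and passed it with DESeq2 (log2 fold change -0.28, adjusted p = 0.0474). All 3 mice on chow, at 985 to 1158 CPM, lay above the 3 mice on 2% iron, at 828 to 940 CPM. In TPM these groups overlapped, at 1413 to 1482 on chow and 1232 to 1435 on 2% iron. How large a share of all genes lay apart in CPM between these groups is not given here.

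Chow itself, whose iron content the labels do not give, had a light chain sum of 2364 ± 219 CPM and Fth1 at 1051 ± 93.1 CPM. Against 50 ppm these were log2 fold changes of 0.28 (adjusted p = 0.445) and 0.16 (adjusted p = 0.683), in a contrast where 0.391% of genes were called. In CPM the chow and 50 ppm mice did not overlap in either measure, yet neither passed the test across all genes. Fth1 in TPM did overlap, at 1413 to 1482 on chow and 1171 to 1514 on 50 ppm iron. The share of all genes without overlap between these groups is not given here.

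Cellulose in the 2% diet left the light chain near its level without cellulose, at 5133 ± 504 CPM (log2 fold change 0.08, 95% interval -0.19 to 0.34, adjusted p = 0.834). Fth1 was 1065 ± 153 CPM with cellulose (log2 fold change 0.29, 95% interval 0.05 to 0.53, adjusted p = 0.309). Between these 2 diets 0.0811% of genes were called. Against 50 ppm iron the cellulose diet gave a light chain rise of 1.40 (SE 0.12, adjusted p = 1.69e-05, 2.64-fold) and an Fth1 difference of 0.18 (95% interval -0.06 to 0.42, adjusted p = 0.244), where 29.7% of genes were called. These contrasts share control mice, so they do not count as separate observations of the same response.

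**Figure D2:**
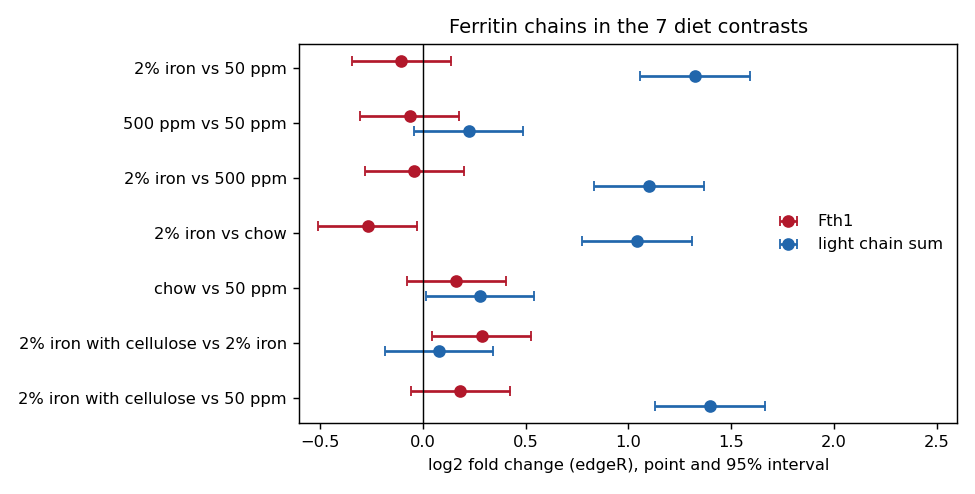
Log2 fold changes of Fth1 and the light chain sum in the 7 diet contrasts (horizontal axis), with points for the edgeR estimate and bars for the 95% interval of each. The 4 contrasts of a 2% diet against a lower iron diet or chow lie between 1.04 and 1.40 for the light chain, and the Fth1 estimates lie between -0.27 and 0.29.

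The makeup of the ferritin messenger pool differed between diets. The ratio of light chain sum to Fth1 in TPM, which is per transcript length, was 1.97 ± 0.116 on chow, 1.82 ± 0.0535 on 50 ppm iron and 2.22 ± 0.359 on 500 ppm iron. It was 4.90 ± 0.467 on 2% iron and 4.24 ± 0.221 on 2% iron with cellulose (SD, n = 3 each). Over the 6 mice on 2% diets and the 9 mice on the others, the mean log2 ratio differed by 1.20, or 2.29-fold (exact two-sided permutation test, p = 0.0001998, the smallest that 5005 arrangements can give). The lowest ratio on a 2% diet was 4.03 and the highest on another diet was 2.63. Ferritin genes together made up 0.285 ± 0.0227% of all counts on 50 ppm iron and 0.584 ± 0.0110% on 2% iron. By TPM, Ftl1 ranked between 34 and 46 among all genes of a liver on chow, 50 ppm or 500 ppm iron. On the 2% diets it ranked between 13 and 20.

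Markers of several cell types moved with the light chain. The summed level of 9 Kupffer cell and macrophage markers was 125 to 201.9 CPM on 50 ppm iron and 488 to 540 CPM on 2% iron, and 9 of 9 rose (median log2 fold change 1.62, against 0.01 over all genes). Of 5 erythroid markers 4 globin genes rose and Alas2 fell, with summed levels of 68.0 to 109 CPM on 50 ppm iron and 320 to 475 CPM on 2% iron. The 5 hepatocyte markers summed to 78667 to 89227 CPM on 50 ppm iron and 99932 to 107460 CPM on 2% iron, without overlap, where Trf rose and Apoa1 fell. Summed neutrophil markers were 0.194 to 0.746 CPM on 50 ppm iron, 2.90 to 10.1 CPM on 2% iron and 5.56 to 55.7 CPM on the cellulose diet, with 0 of 3 tested called on 2% iron and 3 of 3 called higher on the cellulose diet against 50 ppm. Over all genes tested, 15.7% were called in 2% against 50 ppm iron and 29.7% on the cellulose diet against 50 ppm. On the cellulose diet the sums were 511 to 728 CPM for macrophage and 156.4 to 432 CPM for erythroid markers. Their part in the light chain change was not tested.

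Among 8 other messengers that carry iron-responsive elements, 1 rose and 1 fell in 2% against 50 ppm iron. In that contrast 15.7% of all genes tested were called. Slc40a1, the iron exporter ferroportin with an element in its 5′ region like ferritin, rose from 136 ± 16.6 to 395 ± 38.3 CPM (log2 fold change 1.54, SE 0.16, adjusted p = 0.000126). Alas2, the erythroid enzyme of heme synthesis with a 5′ element, fell from 60.95 ± 22.6 to 21.4 ± 5.97 CPM (log2 fold change -1.51, SE 0.24, adjusted p = 0.0017). Tfrc, the transferrin receptor, whose 3′ elements stabilise the messenger when iron is low, was at 13.5 ± 5.46 CPM on 50 ppm iron, 23.2 ± 5.09 CPM on 2% iron and 29.5 ± 5.57 CPM on chow (adjusted p = 0.124 and 0.472). The 8 genes had a median log2 fold change of 0.07. Against chow 2 rose, Slc40a1 and Epas1, a hypoxia-inducible factor subunit, and Alas2 fell. Of all genes tested, 22.8% were called against chow. With limma on TPM 1 of the 8 was called higher against chow.

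Of the 3 genes of the iron sensor itself, Aco1 (iron regulatory protein 1) fell from 212 ± 8.78 to 158 ± 6.60 CPM in 2% against 50 ppm iron (log2 fold change -0.42, SE 0.09, adjusted p = 0.00682). It also fell against chow (log2 fold change -0.74, SE 0.09, adjusted p = 0.000146). Ireb2 (iron regulatory protein 2) fell against chow (log2 fold change -0.24, adjusted p = 0.0492) and against 50 ppm on the cellulose diet (-0.45, adjusted p = 0.00138), but had -0.18 (adjusted p = 0.157) in 2% against 50 ppm iron. Fbxl5, the ligase subunit that targets iron regulatory proteins for degradation, rose against chow (0.39, adjusted p = 0.00973) and had 0.19 (adjusted p = 0.195) against 50 ppm iron. Over all genes tested, 15.7% were called in 2% against 50 ppm iron and 22.8% in 2% iron against chow. On the cellulose diet against 50 ppm iron, 29.7% were called. In 19 of 22 alternatives only 1 of the 3 genes was called lower against chow, where the adjusted p of Ireb2 lies close to the threshold. With limma on TPM 0 of the 3 were called lower against 50 ppm iron on either 2% diet.

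Genes that load, import or degrade ferritin were mostly not called in 2% against 50 ppm iron. Of 7 tested members of this list (Ftmt, the mitochondrial ferritin, had too few counts), 0 were called by edgeR in 2% against 50 ppm iron, where 2 had an unadjusted p under 0.05 (Lamp2 and Scara5) and the log2 fold changes ran from -0.23 to 1.04. Over all genes tested, 15.7% were called in that contrast. Scara5, a receptor for light chain ferritin, was called higher on chow than on 50 ppm iron (1.90, adjusted p = 0.0439), a call that 15 of 22 alternatives lost. Against chow, Lamp2 fell in 2% iron (-0.33, adjusted p = 0.0282), and 10 of 22 alternatives gave another count of falling genes there. Ncoa4, the receptor that carries ferritin to lysosomes, had a log2 fold change of 0.23 (SE 0.13, adjusted p = 0.252) in 2% against 50 ppm iron. On the cellulose diet against 50 ppm iron, Pcbp1, a chaperone that hands iron to ferritin, rose (0.43, adjusted p = 0.0023), while Lamp2, a lysosomal membrane protein (-0.39, adjusted p = 0.009), and Timd2, a receptor for heavy chain ferritin (-0.52, adjusted p = 0.00147), fell. With limma on TPM 0 of the list were called lower there. Among all genes tested by edgeR, 29.7% were called on the cellulose diet against 50 ppm iron. The share was 22.8% in 2% iron against chow and 0.391% on chow against 50 ppm iron.

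Fth1 is known as a gene that oxidative stress induces through the factor NRF2. Of 10 genes of that system, 4 rose and 0 fell in 2% against 50 ppm iron: Keap1, the inhibitor of NRF2, and Nqo1, Hmox1 and Srxn1, enzymes of the response. Of all genes tested, 15.7% were called there in either direction. Hmox1 (heme oxygenase 1, which frees iron from heme) rose from 10.01 ± 3.42 to 51.8 ± 7.08 CPM (log2 fold change 2.36, SE 0.52, adjusted p = 0.00842). Nqo1, a quinone reductase, rose from 3.40 ± 0.547 to 9.41 ± 0.747 CPM (log2 fold change 1.46, SE 0.30, adjusted p = 0.00596). The median of the list was 0.29 beside 0.01 over all genes. By edgeR in the same contrast, Fth1 had a log2 fold change of -0.11 (adjusted p = 0.573) and the light chain sum 1.32 (adjusted p = 8.35e-05). A part of NRF2 in the level of either chain was not tested.

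Across the panel, all on 2% iron, the assignment of light chain counts set 4 strains apart. In 110 strains Ftl1 took between 98.7% and 99.5% of the light chain counts. In SJL/J, I/LnJ, NZW/LacJ and both mice of 129X1/SvJ it took between 0.969% and 1.25%. Ftl1 there was 32.3 CPM in SJL/J, 54.7 in I/LnJ, 52.9 in NZW/LacJ and 56.1 and 48.3 in the mice of 129X1/SvJ, against 2710 to 6258 CPM in the other strains. These strains were singled out after their values were seen.

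The counts appeared at the copies. Ftl1-ps1 was 2781 CPM in SJL/J, 3845 in I/LnJ, 3876 in NZW/LacJ and 3715 and 4051 in the mice of 129X1/SvJ, against 17.5 to 60.8 CPM elsewhere. Ftl2-ps was 519 CPM in SJL/J, 694.7 in I/LnJ, 792 in NZW/LacJ and 727 and 745 in 129X1/SvJ, and at most 1.37 CPM elsewhere. Ftl1-ps2, with 12.9 to 89.0 counts in these 5 libraries and at most 10.9 counts in the other 110, was also higher there. The second mouse of 129X1/SvJ held the 89.0 counts and the first 16.3.

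Summed, the strains did not stand apart. Light chain sums were 3334 CPM in SJL/J, 4596 in I/LnJ, 4722 in NZW/LacJ and 4499 and 4850 in 129X1/SvJ, inside the range of all other strains, 2729 (BXD19/TyJ) to 6306 CPM (CE/J). Counting from the lowest, they held ranks 9, 71, 77 and 74 of 114.

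**Figure D3:**
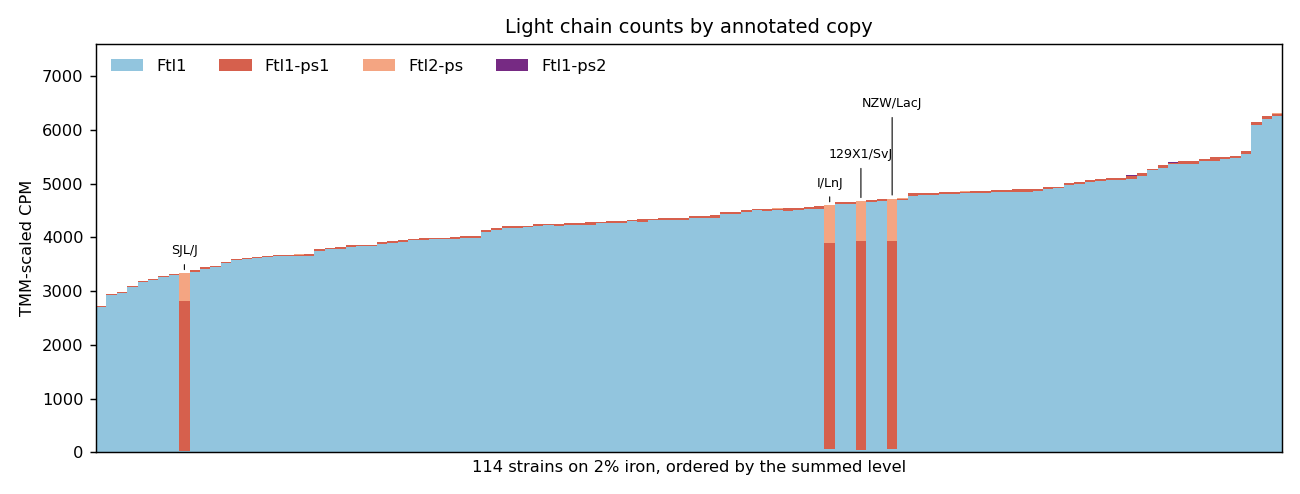
Light chain level in TMM-scaled CPM (vertical axis) for 114 strains on 2% iron ordered by the summed level, stacked by the annotated gene the counts were assigned to. In 4 labelled strains nearly all of the bar is Ftl1-ps1 and Ftl2-ps, and the bar heights, 3334 to 4722 CPM, follow those of their neighbours.

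The unit matters for these strains. In TPM the light chain sum of I/LnJ was 9880, the highest of 114 strains, and NZW/LacJ ranked next at 9484. In NZW/LacJ, 3876 CPM of Ftl1-ps1 stood beside 6978 TPM and 792 CPM of Ftl2-ps beside 2425 TPM, whereas in the diet study on 2% iron 4827 CPM of Ftl1 stood beside 6353 TPM. The light to heavy ratio of 129X1/SvJ ranked 113 of 114 in TPM (6.47) and 73 in CPM (5.25), and that of I/LnJ, the next lower in TPM (6.38), ranked 69 in CPM (5.16).

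Tests of single copies carried the pattern into the comparison of strain groups. BXD strains against other inbred strains gave a log2 fold change of -3.69 for Ftl1-ps1 (SE 0.40, adjusted p = 3.46e-11), 0.21 for Ftl1 (SE 0.19, adjusted p = 0.485) and 0.01 for the light chain sum (95% interval -0.09 to 0.12, adjusted p = 0.902). In that comparison 17.9% of 13627 genes were called. With limma on log2(TPM + 1) Ftl1 had 0.85 (adjusted p = 0.0364) and Ftl1-ps1 had -0.56 (adjusted p = 0.217). Without the 4 strains, Ftl1-ps1 had 0.18 (adjusted p = 0.222) and the sum 0.01 (adjusted p = 0.927).

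In the 2 comparisons of strain families that were tested, neither Fth1 nor the light chain sum was called by edgeR. BXD against AXB/BXA gave 0.02 for Fth1 (95% interval -0.09 to 0.14, adjusted p = 0.866) and -0.02 for the light chain sum (95% interval -0.15 to 0.10, adjusted p = 0.858), where 11.6% of 13794 genes were called. BXD against other inbred strains gave -0.09 for Fth1 (95% interval -0.22 to 0.04, adjusted p = 0.368). The log2 light to heavy ratio in TPM differed by -0.04 between BXD and AXB/BXA (permutation test with 100000 resamples, two-sided, p = 0.609). The library labelled BXD65/RwwJ had a summed level of 4 Y-linked genes of 3.94 CPM against 118 CPM or more in every other strain although it is labelled male. No ferritin result changed its call without it.

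Within the panel, Fth1 ran from 627 CPM in BXH14/TyJ to 1921 CPM in NZB/BlNJ, with a median of 882 CPM, a 3.06-fold span. Light chain sums ran from 2729 CPM in BXD19/TyJ to 6306 CPM in CE/J with a median of 4375 CPM, a 2.31-fold span. The SD of log2 CPM between strains was 0.27 for Fth1 and 0.24 for the light chain sum, against a median of 0.35 over 13410 genes. The SD between mice of a diet group was 0.13 for both, and the 129X1/SvJ mice differed by 0.03 for Fth1 and 0.11 for the sum. Strains next to each other in either order cannot be told apart with 1 mouse per strain and that spread between mice.

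The high end of Fth1 stood away from the rest. NZB/BlNJ (1921 CPM) and BXH2/TyJ (1745 CPM) were followed by NZW/LacJ (1475), FVB/NJ (1471) and BALB/cJ (1377 CPM). Taking the SD between mice of a diet group as the measure, 19 strains lay more than 2 SD above the panel median for Fth1 and 11 lay more than 2 SD below it, and NZB/BlNJ was 8.96 SD above. For the light chain sum 13 strains lay above and 17 below by that measure, with CE/J at 4.14 SD from the median and BXD19/TyJ at -5.34 SD. The SD between strains was 2.17 times the SD between mice of a diet group for Fth1 and 1.85 times for the sum. Over 13410 genes the median was 1.65 times, and 76.7% and 62.1% of genes had an equal or lower value. NZB/BlNJ and BXH2/TyJ had middling or low light chain sums, 4246 and 3635 CPM, so their light to heavy ratios in TPM, 1.94 and 1.82, were the lowest of the panel, beside a panel median of 4.33.

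Blood cell markers were high in some of these livers and not in others. Summed erythroid markers were 1508 CPM in NZB/BlNJ, 1197 in BXH2/TyJ, 944 in NZW/LacJ and 1361 in FVB/NJ, against a panel median of 183 CPM, and 10.9 CPM in BALB/cJ. Summed neutrophil markers were 124 CPM in BXH2/TyJ, the highest of the panel, 59.1 CPM in NZB/BlNJ and 49.5 CPM in FVB/NJ. They were 7.71 CPM in NZW/LacJ and 2.14 CPM in BALB/cJ, against a panel median of 3.96 CPM. Over all 114 strains, Pearson's r of Fth1 with the globin gene Hba-a1 was 0.194 (permutation test, adjusted p = 0.0796). Without NZB/BlNJ and BXH2/TyJ this r was 0.127, and it passed the threshold in 1 of 5 alternatives. The part of blood cells in the Fth1 levels was not tested. In CE/J, which had the highest light chain sum, summed macrophage markers were 190 CPM, the lowest of the panel. They were also low in BXD19/TyJ, which had the lowest light chain sum, at 231 CPM (rank 110 of 114 from the highest).

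The parents of the recombinant strains lay near the centre or low. C57BL/6J had 883 CPM of Fth1 and 4531 CPM of light chain, DBA/2J had 698 and 4000 CPM, and A/J had 796 and 3288 CPM. Of the 56 BXD strains, 32 lay above both parents in Fth1, 23 between them and 1 below, and for the light chain 25 lay above, 15 between and 16 below. Of the 20 AXB/BXA strains, 10 lay above both parents in either measure, while 4 lay below both in Fth1 and 2 in the light chain. Each parent was 1 mouse. The panel's C57BL/6J mouse had a light to heavy ratio of 4.49 in TPM beside 4.38 to 5.29 in the diet study on 2% iron, where the tables were made separately.

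**Figure D4:**
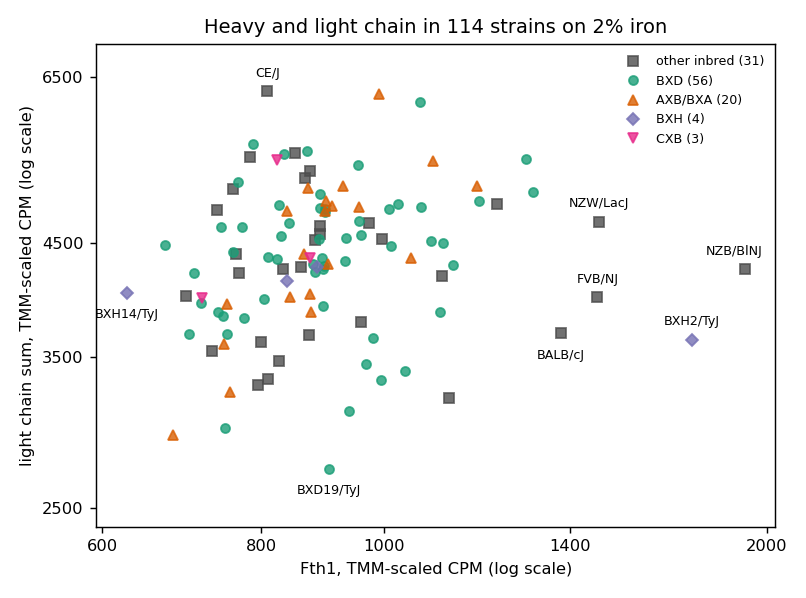
Fth1 (horizontal) against the light chain sum (vertical), both in TMM-scaled CPM on log axes, for 114 strains on 2% iron, with symbols for strain families. NZB/BlNJ at 1921 CPM and BXH2/TyJ at 1745 CPM of Fth1 lie far to the right at light chain levels of 4246 and 3635 CPM.

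The chains varied largely apart over strains. Pearson's r between log2 CPM of Fth1 and the light chain sum was 0.127 over 114 strains (permutation p = 0.177, adjusted p = 0.246 over the 25 relations computed) and Spearman's rho was 0.196 (permutation p = 0.0364, adjusted p = 0.101). Without NZB/BlNJ and BXH2/TyJ, the strains farthest from the Fth1 median, r was 0.195. Within families r was 0.208 in BXD (permutation p = 0.124), 0.763 in AXB/BXA (permutation p = 8e-05, adjusted p = 0.002) and -0.07 in the other inbred strains (permutation p = 0.707). The AXB/BXA value was 0.714 without BXA12/PgnJ and BXA13/PgnJ. On log2(TPM + 1), r over all strains was 0.341 (adjusted p = 0.00075), so the relation depended on the unit.

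Fth1 rose and fell with several genes of iron handling and stress over the strains. Its r was 0.710 with Nqo1 (rho 0.587), 0.651 with Tfrc (rho 0.556), 0.468 with Hmox1 (rho 0.430) and 0.462 with Ncoa4 (rho 0.5001). Its r with Ireb2 was -0.58 (rho -0.49), and Fth1 with Ireb2 across strains had -0.26 on log2(TPM + 1) (adjusted p = 0.0136). Each of these r and rho had a permutation p of 1e-05, the smallest 100000 resamples can give, and an adjusted p of 5e-05. Without NZB/BlNJ and BXH2/TyJ the r values were 0.654, 0.614, 0.424, 0.489 and -0.51 in the same order.

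Within families the same relations were computed over fewer strains, and differences between families were not tested. In BXD strains r with Fth1 was 0.639 for Nqo1, 0.663 for Tfrc, 0.497 for Hmox1, 0.611 for Ncoa4 and -0.65 for Ireb2, and all had an adjusted p under 0.05 by the permutation test. In the other inbred strains Nqo1 (0.829), Tfrc (0.729) and Ireb2 (-0.65) passed, while Hmox1 had 0.370 (adjusted p = 0.219) and Ncoa4 had 0.363 (adjusted p = 0.219). In the 20 AXB/BXA strains none of the 5 passed: r was 0.498 with Nqo1 (adjusted p = 0.158), 0.227 with Tfrc, 0.298 with Hmox1, 0.561 with Ncoa4 (adjusted p = 0.103) and -0.12 with Ireb2. Cd68, a macrophage marker, had an r of 0.252 with Fth1 over all strains (permutation p = 0.00614, adjusted p = 0.0246), and the other macrophage marker, Adgre1, had -0.18 (adjusted p = 0.0996).

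Light chain sums had r between -0.23 and 0.251 with the same 12 partners. The values that passed were 0.251 with Aco1 (adjusted p = 0.0246), 0.230 with Hamp, the iron hormone hepcidin (adjusted p = 0.0406), and -0.23 with Saa1, an acute phase protein (adjusted p = 0.0406), all by permutation. On log2(TPM + 1) the relation of light chain sum with Slc40a1 across strains rose from 0.213 (adjusted p = 0.0536) to 0.479 (adjusted p = 3.6e-05), light chain sum with Nqo1 across strains was 0.278 and light chain sum with Cd68 across strains was 0.276 (each adjusted p = 0.0074), and that with Saa1 no longer passed. The 3 values did not pass for Ftl1 alone over the 110 strains with most light chain counts on it. By rho none of the 3 passed (0.175, 0.222 and -0.19, with adjusted p of 0.119, 0.0541 and 0.110). Within families only BXD strains had values that passed: 0.324 with Slc40a1, 0.318 with Nqo1 and -0.32 with Saa1 (each adjusted p = 0.0483 by permutation). None of these passed by rho (adjusted p of 0.1003, 0.1003 and 0.120), and Slc40a1 had 0.212 without the 2 farthest strains. Over all 114 strains the r of the light chain sum with Nqo1 was 0.166, with Hmox1 0.0134, with Ncoa4 0.00478 and with Tfrc -0.17.

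**Figure D5:**
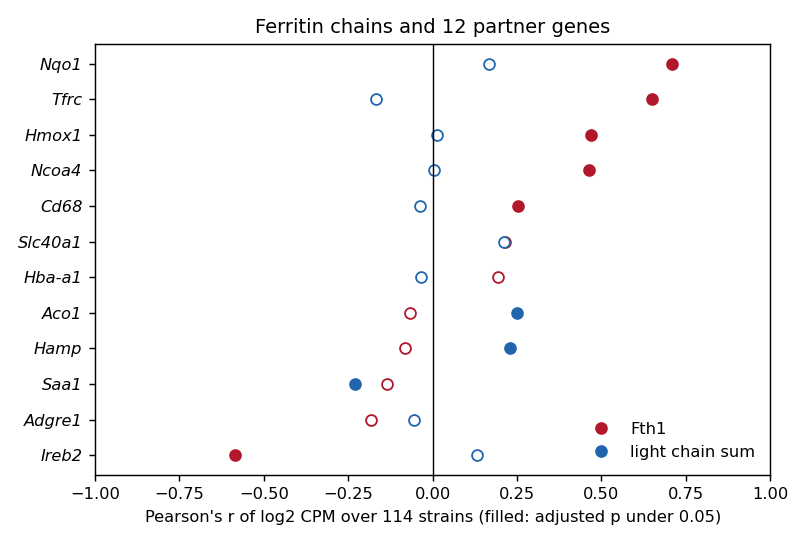
Pearson's r of log2 CPM (horizontal axis, -1 to 1) of Fth1 and of the light chain sum with 12 partner genes over 114 strains; filled circles have an adjusted permutation p under 0.05. Nqo1 and Tfrc lie far right for Fth1 (0.710 and 0.651) and near 0 for the light chain sum (0.166 and -0.17).

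The genes whose levels over the strains were most like Fth1 were Rpl18 (r = 0.782), Rpl8 (0.778), Rpl32 (0.776) and Rpl5 (0.772), all ribosomal protein genes, among 12909 genes with a median r of -0.01. Without the 2 strains farthest from the median these values ran from 0.705 to 0.722. Of the 50 genes most like Fth1, 34 were ribosomal protein genes, of which 78 were among the 12909. The summed level of the 78 genes had an r of 0.774 with Fth1 and -0.05 with the light chain sum. Library depth had an r of -0.12 with Fth1 and -0.19 with the light chain sum. The number of genes with a count above 0 had an r of 0.301 with Fth1 and -0.28 with the light chain sum. These values describe the 114 libraries, which share a normalization.

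For the light chain sum the most alike genes were Arpc1a (r = 0.513), a subunit of the actin-nucleating Arp2/3 complex, Akr1a1 (0.488), an aldo-keto reductase, Pex5 (0.478), the peroxisomal import receptor, Cryl1 (0.466) and Wbp2 (0.463). No ribosomal protein gene was among these 5. Of them, Cryl1 had an r of 0.140 in AXB/BXA strains and 0.624 in the other inbred strains.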

How the data were processed

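Stranded polyA libraries from male mouse liver were quantified by the authors; the submitters' processing notes name kallisto 0.46 and build mm10. The authors deposited expected counts per gene (estimated counts, not normalized; part of the values are not whole), judged from the values. TPM values for the same genes, scaled by the authors for transcript length and library size before they deposited them, are named so by the tables, which are separate for the diet study and the panel. Totals ran from 9.41 to 20.6 M counts (M, 1000000) per library; counting error is small for Fth1 and Ftl1, and limits Ftl2-ps and Ftl1-ps2. Expected counts were rounded to whole numbers. edgeR 4.0.16 (R 4.3.3) tested all genes passing filterByExpr with TMM factors, quasi-likelihood fits and Benjamini-Hochberg adjustment at 0.05, two-sided. The 15 diet mice entered 1 fit; families were fitted in pairs with 1 mouse per strain. The light chain sum replaced its 4 genes in a second fit. Log2 CPM used a prior count of 2. Python 3.11.15 and scipy 1.17.1 computed permutation tests (100000 resamples for strains, 129X1/SvJ averaged). Pooled correlations were left out for genes whose strains fell into separate clusters, a rule set after the values were seen, which covered Ftl1 alone. Coordinates and sequences are GENCODE M21 (GRCm38). The scripts were tested on simulated data. The members and gene lists were chosen with earlier results of these data known. Named genes were the members, pathway genes called in a contrast, and the 5 most alike genes, of which 1 is not reported here; strains named by rule were the extremes of each member, C57BL/6J, DBA/2J, A/J and 129X1/SvJ, and I/LnJ, BXH2/TyJ, FVB/NJ, BALB/cJ, BXD65/RwwJ, BXA12/PgnJ and BXA13/PgnJ were named after their values were seen. Alternatives were RLE factors, other filters, DESeq2 1.42.0, limma 3.58.1 on log2(TPM + 1) and log2(TPM + 0.1), fewer groups and single mice left out.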

Additional observations from a re-analysis of the deposited data

How the results depend on the processing

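Over 37 main results and 718 alternatives, 668 values were scored as the same. For fold changes, ratios and correlations this meant the same direction and the same side of the threshold. For counts of list genes called it meant an equal or close count, and several of these counts were 0. The light chain rise in 2% against 50 ppm iron ran from 1.30 to 1.39 over its alternatives. Fth1 in 2% against 500 ppm iron turned from -0.04 to above 0 with limma on log2(TPM + 1) (0.0270) and on log2(TPM + 0.1) (0.0270). Fth1 in 2% iron against chow passed the threshold with DESeq2 (-0.28). The light chain sum between BXD and other inbred strains turned from 0.01 to -0.0333 with both limma fits. The r of Fth1 with the light chain sum was 0.341 on log2(TPM + 1). The cause of these changes was not tested.

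Several results for single genes reversed. Ftl1-ps1 between BXD and other inbred strains was 0.18 without the strains with most counts on the copies, an alternative chosen after seeing the data. Ftl1-ps1 with cellulose against 2% iron ran from -0.0780 to 0.18 with 1 mouse left out. On log2(TPM + 1), r with Fth1 was 0.0452 for Aco1 and 0.0570 for Adgre1, and r with the light chain sum was 0.20 for Adgre1, 0.28 for Cd68 and 0.0741 for Hba-a1, of which the values for Adgre1 (adjusted p = 0.0489) and Cd68 (adjusted p = 0.0074) passed the threshold. Without the 2 farthest strains r was 0.11 for Fth1 with Hamp, and -0.0532 for Ncoa4 and -0.00998 for Hmox1 with the light chain sum. The value of light chain sum with Ncoa4 across strains was -0.00296 after centring on family means.

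In the lists, the limma fits gave 1 messenger with an iron-responsive element higher against chow and 0 iron sensor genes lower against 50 ppm iron. Iron sensor genes lower against chow were 1 with no filter, with at least 10 counts in every library, with both limma fits and with only the 2 groups compared. Ferritin handling genes lower against chow were 0 with no filter, with both limma fits and with only the 2 groups. NRF2 genes higher against 50 ppm iron were 2 with limma on log2(TPM + 0.1). With 1 mouse left out, messengers with the element numbered 1 to 2 higher against 50 ppm iron, and 1 to 2 higher and 1 to 2 lower against chow. Iron sensor genes lower against chow numbered 1 to 2, ferritin handling genes 0 to 1 higher against 50 ppm iron and 0 to 2 lower against chow, and NRF2 genes 2 to 4 higher against 50 ppm iron and 1 to 4 against chow.

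Counts of genes called ran from 1003 to 2333 for 2% against 50 ppm iron, 788 to 2204 against 500 ppm, 1921 to 3320 against chow, 0 to 224 for cellulose against 2% iron, 2466 to 4206 for cellulose against 50 ppm, 4 to 147 for chow against 50 ppm, 0 to 2 for 500 against 50 ppm (2 by DESeq2), 910 to 1827 for BXD against AXB/BXA and 1526 to 3108 for BXD against other inbred strains. Without BXD65/RwwJ, also added after seeing the data, every ferritin result of the panel kept its call. Ftl1 alone was correlated only over the 110 strains with most counts on it, also a choice made after seeing the data. No paired analysis was possible because replicate numbers only name the mice. Depth limits Ftl2-ps and Ftl1-ps2, which had too few counts to test in most libraries.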
